A study of Drosophila melanogaster with 3 samples.

Results

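The chemoreceptor genes of Drosophila melanogaster were examined for binding of Runt, a transcription factor of the RUNX family. Runt was first described as a pair-rule factor that patterns the segments of the early embryo, and it also acts in sex determination and in the embryonic nervous system. Members were all protein-coding genes on the 6 chromosome arms whose symbol begins with Or, Gr or Ir, followed by a number and lower-case letters. There were 179 of them among 13945 protein-coding genes: 59 odorant receptor (Or) genes, 60 gustatory receptor (Gr) genes and 60 ionotropic receptor (Ir) genes. Chromatin immunoprecipitation and sequencing had been done on whole embryos collected from 0 to 16 hours, in 3 biological replicates that form 1 group. The embryos came from 1 stable transgenic line in which GFP is fused to the C-terminus of Runt, and the antibody is given as anti-GFP in the sample descriptions, while the antibody field of the labels reads run. The 2 peak lists that combine replicates were used beside those of single replicates. Sex was not collected, no second condition or untagged line is among the samples, and whole embryos mix all cell types, so binding in a few cells cannot be told apart from weak binding in many.

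Or and Gr proteins are membrane receptors with 7 passes through the membrane, and Ir proteins derive from ionotropic glutamate receptors. Insect Or proteins work with the co-receptor Orco, Gr proteins detect sugars, bitter compounds and carbon dioxide, and Ir proteins detect acids, amines, humidity and temperature with the co-receptors Ir8a, Ir25a and Ir76b. Most are expressed in small sets of sensory neurons of the adult, a stage outside the embryonic collection, and some of them also in the larva. The genes lie singly or in small arrays of neighbours, named after the cytological band that holds them.

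Peaks came as lists of intervals on the dm6 build, each with a summit and a signal value given by the authors. Each replicate list and the list called on the pooled replicates held 30000 peaks, and the list passing the irreproducible discovery rate (IDR) threshold held 3065. These 3065 are the strongest pooled peaks by signal. Ranks below run from 1, the highest signal in a list. A gene was scored in either of 2 ways: by a summit in its span or within 5 kb, and by a summit within 500 bases of one of its own annotated transcription starts. The lists carry no read depth, and intervals on shares of genes cover counting error only. These intervals take genes as separate, although neighbours can share summits. Or10a and Gr10a have the same annotated span and start, so that locus counts in both families. Gr64b and Gr64c also have the same span.

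No receptor gene had a Runt-GFP peak of the IDR list at its start, and few had one nearby. None of the 179 genes had an IDR summit within 500 bases of an own start, which allows a share of up to 1.68% by the limit of 3 counts and up to 2.04% by the exact Clopper-Pearson interval, while 11.4% of all protein-coding genes had one. The nearest such summit lay 628 bases from the start of Or88a, a receptor for a fatty-acid methyl ester pheromone. Within the span or 5 kb, 26 of the 179 genes had an IDR summit (14.5%, 95% exact Clopper-Pearson interval 9.71 to 20.6), against 33.8% of all protein-coding genes. No IDR summit lay inside the span of any receptor gene, while 9.21% of all protein-coding genes had one inside theirs. Receptor spans are short and mostly coding sequence, where IDR summits were rare in any gene.

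The families were scored apart. Among Or genes, 5 of 59 had an IDR summit within 5 kb (8.47%, interval 2.81 to 18.7). Among Gr genes 10 of 60 did (16.7%, 8.29 to 28.5), and among Ir genes 11 of 60 (18.3%, 9.52 to 30.4). The intervals of the 3 families overlap, and no difference between families was tested. The order of the families did not hold when a replicate was left out and only IDR peaks among the 3065 strongest of both others were kept. Without replicate 2 there were 5 Or, 5 Gr and 4 Ir genes, without replicate 3 there were 5, 4 and 5, and without replicate 1 there were 5, 9 and 8.

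In the longer lists most receptor genes had a summit within 5 kb, and few had one at their start. The pooled list placed a summit within 5 kb of 125 of 179 genes (69.8%), against 81.6% of all genes. The families were close to each other in this count, with 39 Or genes (66.1%), 43 Gr genes (71.7%) and 43 Ir genes (71.7%). At own starts the pooled list had a summit for 5 of 179 genes (2.79%, 0.913 to 6.40), against 42.8% of all genes. These were 1 Or gene, 1 Gr gene and 3 Ir genes.

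Each replicate gave the same ordering of receptor genes and all genes. Within 5 kb, a summit was listed for 132, 142 and 114 receptor genes in replicates 1, 2 and 3, where 89.3%, 86.5% and 82.4% of all genes had one. The shares were 72.3% ± 7.93 for receptor genes and 86.1% ± 3.43 for all genes (SD, n = 3), and the receptor share was the lower in 3 of 3 replicates. Within 500 bases of an own start, 18, 14 and 11 receptor genes had a summit, against 48.1%, 44.8% and 43.5% of all genes. The shares were 8.01% ± 1.96 and 45.5% ± 2.38 (SD, n = 3), so that the gap at starts was larger than the spread between replicates. In the replicates' own 3065 strongest peaks, 0 receptor genes had a summit at a start in any replicate, and 21, 27 and 24 had one within 5 kb. The design holds 1 group, and receptor genes were not compared with other genes by a test.

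**Figure D1:**
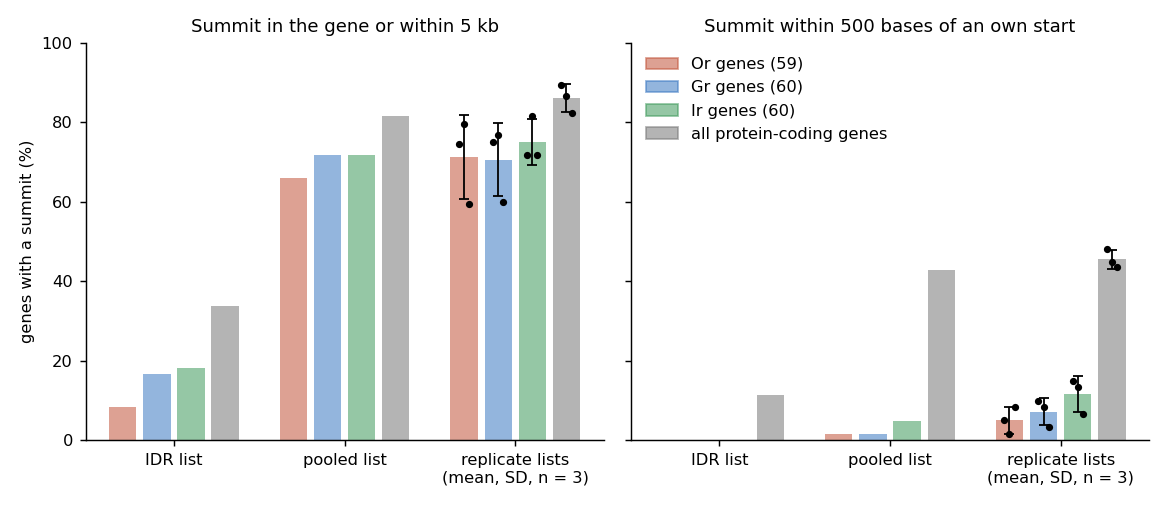
Percent of Or, Gr and Ir genes and of all 13945 protein-coding genes with a summit in the span or within 5 kb (left) and within 500 bases of an own start (right), in the IDR list, the pooled list and the 3 replicate lists (bars are means, error bars SD, points single replicates). The right panel has no receptor bar for the IDR list, because 0 of 179 genes had a summit there.

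The counts were then followed by distance from the start. In bins of 500 bases from the outermost start, 29.2% of all genes had a pooled summit in the bin just upstream and 15.1% in the bin just downstream. For receptor genes the counts in these bins were 5 of 179 (2.79%) and 0 of 179. From 5000 to 2500 bases upstream 35.8% of receptor genes and 37.5% of all genes had a pooled summit. In the IDR list the shares there were 5.03% and 7.01%, with 0 of 59 Or genes. Downstream the receptor share was the lower in every pooled bin to 5000 bases, for example 5.03% against 9.91% from 2500 to 3000 bases and 4.47% against 10.9% from 3500 to 4000 bases. The median distance from an own start to the nearest pooled summit was 3919 bases for receptor genes and 992 for all genes, and to the nearest IDR summit 28899 and 12991.

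**Figure D2:**
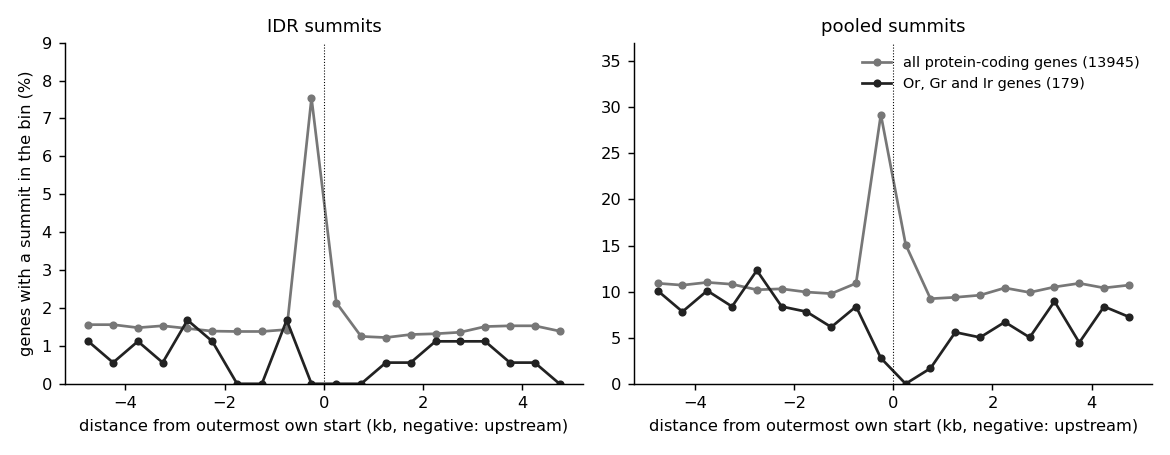
Percent of the 179 receptor genes and of all 13945 protein-coding genes with an IDR summit (left) or pooled summit (right) in each bin of 500 bases around the outermost annotated start, by distance in kb. All genes show a maximum just upstream of the start, at 7.54% in the IDR list and 29.2% in the pooled list, while receptor genes are at 0 and 2.79% in that bin.

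Features of the annotation differed between receptor genes and other genes and are given beside these counts. The Ensembl annotation gives no 5′ UTR for 130 of the 179 receptor genes (72.6%), so that their annotated start is the start of the coding sequence, while this holds for 3.52% of all genes. Genes of any kind without a 5′ UTR rarely had a summit at the annotated start: 0.204% of 491 in the IDR list and 7.94% in the pooled list. These 491 include the 130 receptor genes, so the 2 sets overlap and their shares are drawn together. Among the 49 receptor genes with an annotated 5′ UTR, however, 0 had an IDR summit at a start, against 11.8% of all genes with one, and 1 (2.04%) had a pooled summit there, against 44.1%. Within 5 kb the split gave another picture. Of the 130 receptor genes without a 5′ UTR, 97 (74.6%) had a pooled summit, against 73.1% of all such genes, and 18 (13.8%) an IDR summit, against 18.1%. Of the 49 with one, 28 (57.1%) had a pooled summit, against 81.9%, and 8 (16.3%) an IDR summit, against 34.4%. Receptor genes were also short, with a median span of 1691 bases against 2166. Among all genes with spans of 1000 to 3000 bases, 30.9% had an IDR summit within 5 kb and 9.70% at a start, and 79.9% and 36.1% had a pooled one. The 157 receptor genes of that size had 24, 0, 108 and 4 in the same order. Fewer receptor genes lay next to another start: 35 (19.6%) had the start of another protein-coding gene within 1000 bases of their own, against 42.9% of all genes. Of those 35, 10 (28.6%) had an IDR summit within 5 kb, against 40.3% of all genes so placed, and of the other 144 receptor genes 16 (11.1%), against 28.9%. The part of start annotation, gene length and neighbouring starts in the lower counts of receptor genes was not tested beyond these splits, which were chosen after seeing the data.

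**Figure D3:**
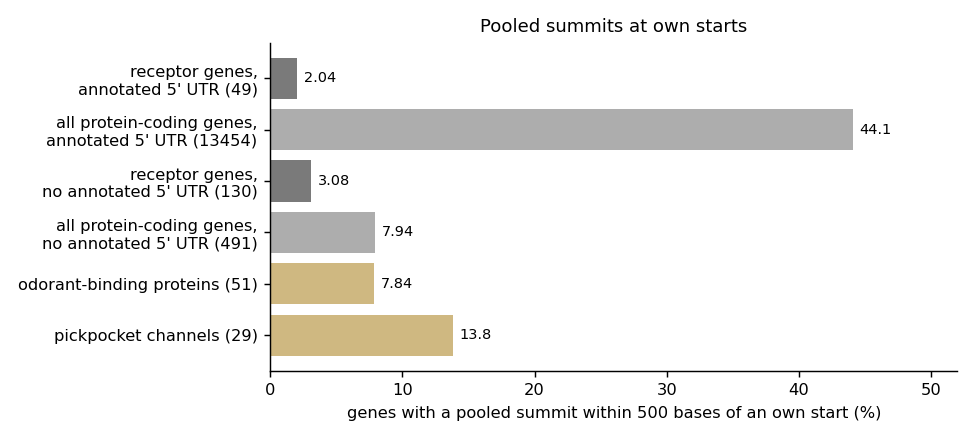
Percent of genes with a pooled summit within 500 bases of an own start, for receptor genes and all protein-coding genes with and without an annotated 5′ UTR, and for odorant-binding protein and pickpocket genes (number of genes in brackets). Receptor genes are at 2.04% with and 3.08% without a 5′ UTR, and all genes, which include the receptor genes, at 44.1% and 7.94%.

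Pooled summits were also sparse within the spans of receptor genes. The spans of all 179 genes held 11 pooled summits in 467 kb (23.6 per Mb), against 217 per Mb over the spans of all protein-coding genes. Without Ir41a and Ir40a, whose spans of 104437 and 24851 bases were far longer than those of the others and held none, the density was 32.6 per Mb. Coding sequence makes up 267 kb of the receptor spans, but only 22800 of the 90000 kb of all spans. Peaks were rare in coding sequence of any gene, so the densities over spans do not compare like with like. Within coding sequence the density of pooled summits was 22.5 per Mb in receptor genes, from 6 summits, and 36.1 per Mb in all genes. In replicates 1, 2 and 3 the coding sequence of receptor genes had 71.2, 52.5 and 41.2 summits per Mb and that of all genes 85.4, 77.3 and 34.3, so that receptor genes were the lower in 2 of 3 replicates. The IDR list had 13 summits in the coding sequence of all genes, or 0.569 per Mb. The lack of IDR summits in the 267 kb of receptor coding sequence therefore says little about receptor genes.

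Most IDR peaks counted for receptor genes were nearer to the start of another gene. The 26 genes rested on 28 distinct summits, 3 of which were counted for a pair of receptor genes. Of these summits 13 (46.4%) were within 500 bases of the start of a protein-coding gene that is not a receptor, near the 41.8% of all IDR summits that were within 500 bases of any protein-coding start, so that this share does not set them apart. A further 9 lay nearest to another gene's start at 563 to 3991 bases, and 6 (21.4%) nearest to the start of a receptor gene. The 5 kb rule counts peaks nearer to another start for genes of any kind. With each IDR summit given only to its nearest start, the share of all genes fell from 33.8% to 14.9%. That of receptor genes fell from 14.5% to 4.47%. The nearest-start rule has no distance limit, so its 8 receptor genes include Or65c and Or67d, at 9029 and 57696 bases, which are not among the 26. Every one of the 28 was overlapped by a peak in all 3 replicate lists, from which the IDR list was itself derived. The share over all IDR peaks was not counted, so this overlap does not set the 28 apart. The median pooled rank of the 28 was 1413, against 1533 for the IDR list.

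The strongest peak counted for any receptor gene ranked 106 and was counted for Ir25a, the broadly expressed Ir co-receptor that also serves in temperature and humidity sensing. Its signal was 675 in the pooled list and 175, 211 and 281 in replicates 1, 2 and 3, where it ranked 87, 132 and 116. The peak was thus among the strongest in each replicate. Its summit lay 2545 bases upstream of the nearest start of Ir25a but 154 bases downstream of a start of the neighbouring gene tank, in an exon of tank. The next, for Or85f, ranked 146, with a signal of 589 in the pooled list, and ranks of 275, 113 and 163 in the replicates. It lay 3188 bases downstream of the Or85f start and 117 bases upstream of that of CG8132. Windows of 101 bases around these summits are shown with 4 of the 6 IDR summits that lay nearest to a receptor gene's own start, those at Gr and Ir genes. Those at Or56a and Or49a are described by their values only. The windows give the plus strand of dm6, from the RefSeq copy of Release 6. Capitals would mark a RUNX consensus word on either strand (the word TGTGGTT, the word TGTGGTC, the word TGCGGTT or the word TGCGGTC), and none of these 6 windows holds one.
Ir25a and tank, chr2L:4837795-4837895: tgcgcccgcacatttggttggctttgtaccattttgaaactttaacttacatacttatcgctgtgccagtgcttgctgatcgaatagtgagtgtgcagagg
Or85f and CG8132, chr3R:9401328-9401428: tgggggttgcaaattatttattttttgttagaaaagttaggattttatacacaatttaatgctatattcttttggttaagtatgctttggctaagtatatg
Gr89a, chr3R:16497603-16497703: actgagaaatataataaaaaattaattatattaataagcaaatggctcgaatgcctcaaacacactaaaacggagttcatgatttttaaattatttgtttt
Ir67b, chr3L:10428194-10428294: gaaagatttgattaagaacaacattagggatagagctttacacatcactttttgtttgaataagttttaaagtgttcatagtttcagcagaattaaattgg
Gr93a, chr3R:21828956-21829056: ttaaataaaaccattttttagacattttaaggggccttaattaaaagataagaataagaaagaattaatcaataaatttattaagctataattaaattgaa
Gr93d, chr3R:21849078-21849178: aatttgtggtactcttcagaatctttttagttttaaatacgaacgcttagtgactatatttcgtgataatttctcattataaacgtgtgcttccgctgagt

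The windows at the Gr89a, Gr93a, Ir67b and Gr93d summits were rich in A and T, with GC contents of 23.8%, 17.8%, 28.7% and 32.7%. Over all 28 summits the median GC content was 29.7% (range 16.8 to 56.4), against a median of 32.7% over the IDR list. A RUNX word was found within 50 bases of 1 of the 28 summits (3.57%), against 9.36% of all IDR summits. The list of 255 pooled summits counted for receptor genes had one at 17 (6.67%), against 7.66% of all pooled summits. No test was run on these shares.

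Among Or genes, the 5 with an IDR peak were Or85f, Or88a, Or56a, Or45b and Or49a. Or85f and Or49a are known as receptors for odours of parasitoid wasps. A second IDR summit for Or85f, at rank 1818, lay 106 bases upstream of the start of CG34117, and its ranks of 701, 4484 and 3338 in the replicates were far apart. The Or88a peak ranked 737 (905, 1166 and 546 in replicates 1, 2 and 3). It lay 628 bases upstream of the Or88a start and 496 bases upstream of that of CG12402. Or56a, the receptor for geosmin, had the peak at rank 842 beyond its 3′ end, 2338 bases from its own start, which was still the nearest protein-coding start. Its replicate ranks were 1530, 626 and 829, all within the strongest 3065. Or45b, a larval odorant receptor, had IDR summits at ranks 955 and 2468, both nearest to the start of Alp6, 3991 and 3339 bases downstream of it. The second was the only one of the 28 with a RUNX word. The Or49a peak ranked 1659 (2966, 2073 and 1487 in the replicates), and lay 660 bases upstream of the Or49a start, nearest to it of all protein-coding starts.

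Among Gr genes, the 10 with an IDR peak were Gr5a, Gr89a, Gr61a, Gr94a, Gr32a, Gr97a, Gr63a, Gr93a, Gr93c and Gr93d. Gr5a, a receptor for trehalose, had the highest rank of them, 520 (342, 529 and 724 in the replicates). This summit lay in an intron of Tre1, which encodes a G-protein-coupled receptor for germ cell migration, 1120 bases upstream of the nearest Tre1 start. The peak of the sugar receptor Gr61a, at rank 976, was 95 bases downstream of the start of CG13901. That of Gr63a, which detects carbon dioxide together with Gr21a, ranked 2379 and lay 177 bases upstream of the start of Fie. The Gr32a peak, at rank 2170, was 784 bases upstream of this bitter and pheromone receptor and 169 bases upstream of Idua, an iduronidase gene. In contrast, Gr89a had an IDR summit nearest to its own start, 1306 bases downstream of it and beyond the 3′ end, at rank 894 (1854, 697 and 992 in the replicates). A second one, at rank 2227, was nearest to the start of the cadherin gene Cad89D. Those of Gr94a, at rank 1087, and Gr97a, at rank 2176, were nearest to the starts of CG17121 and Tsp97E, 616 bases upstream and 882 bases downstream.

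The Gr93 genes on chromosome 3R had IDR peaks at the edge of the list. The summit for Gr93a, a receptor needed for caffeine taste, ranked 2659 (2490, 5798 and 1986 in the replicates), 3497 bases upstream of its start. The peak counted for Gr93c and Gr93d was at rank 3065, the last of the IDR list, 2469 bases upstream of Gr93d. It ranked 2605 and 2407 in replicates 2 and 3 but 8171 in replicate 1. The next pooled peak counted for a receptor gene, at rank 3234 and so outside the IDR list, was counted for Gr93b and Gr93c and lay nearest to the start of Gr93b. By the number of pooled summits within 5 kb, Gr93a (10), Gr93b (9) and Gr93d (9) were among the 5 highest receptor genes, with Or45b (11) and Or85f (10). The mean was 1.78 pooled summits per receptor gene and 3.99 per protein-coding gene.

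Among Ir genes, the 11 with an IDR peak were Ir25a, Ir68b, Ir76a, Ir54a, Ir48c, Ir87a, Ir67b, Ir67c, Ir52d, Ir60d and Ir60e. Ir68b had 3 IDR summits, the most of any receptor gene. The strongest, at rank 575 (479, 520 and 784 in the replicates), lay 9 bases downstream of a start of yps, which encodes a Y-box RNA-binding protein. The others ranked 977, 120 bases upstream of DEF8, and 2654, in an intron of yps. The peak of Ir76a, an antennal receptor for amines, ranked 800 (1255, 1374 and 714 in the replicates) and was in an intron of SREBP, the gene of the lipid-regulating transcription factor. Those of Ir54a, Ir87a and Ir52d, at ranks 1142, 1912 and 2529, lay 103 bases upstream of PIG-A, 272 bases upstream of the actin gene Act87E, and 28 bases upstream of Pgant1. The peak shared by Ir60d and Ir60e, at rank 2997, was 20 bases upstream of CG4612. That of Ir48c, at rank 1167, lay in an intron of ths, which encodes an FGF ligand. Ir67b and Ir67c shared the summit at rank 2037 (3695, 1232 and 2697 in the replicates), beyond the 3′ end of Ir67b and 3739 bases from its start.

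**Figure D4:**
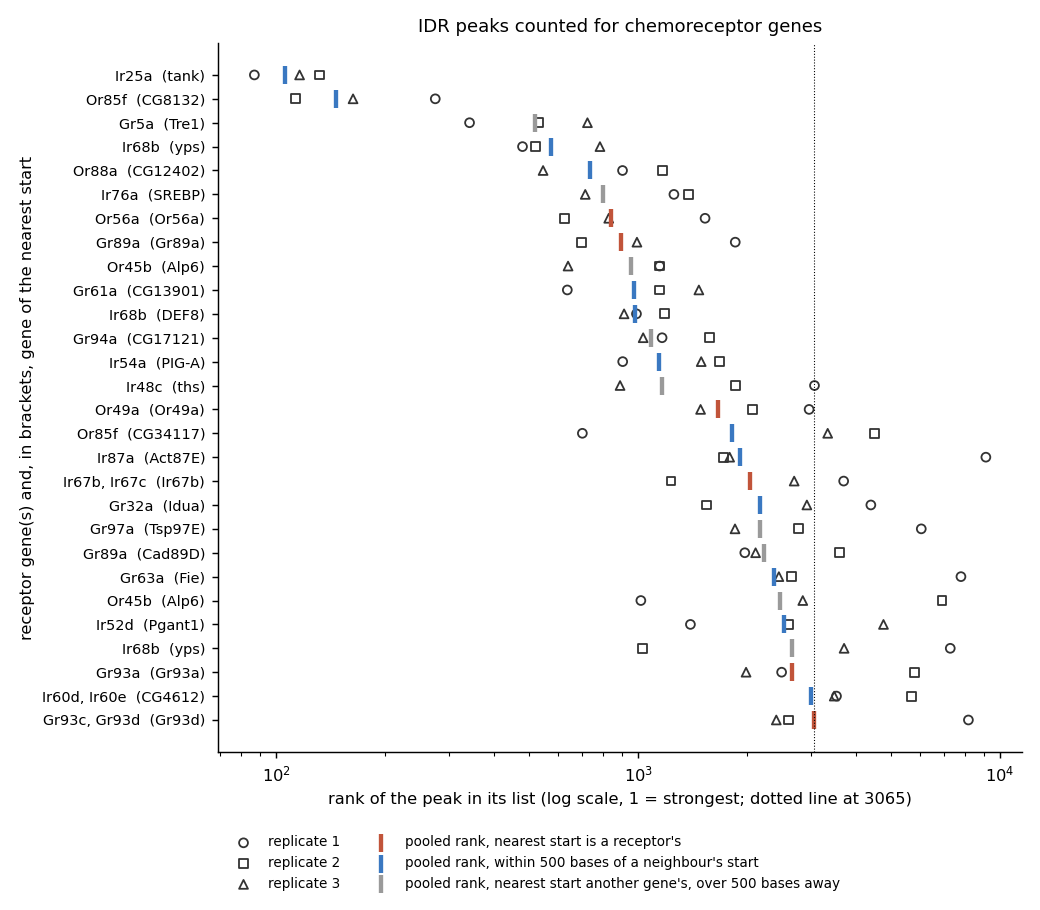
Rank of each of the 28 IDR peaks counted for receptor genes in the pooled list (coloured bars) and in replicates 1, 2 and 3 (open symbols), on a log scale where 1 is the strongest peak; labels give the receptor genes and, in brackets, the gene of the nearest protein-coding start. The top peaks, at tank and CG8132, ranked within 275 in every replicate, and the lower ones spread to rank 9131 in replicate 1.

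Peaks at the receptor genes' own starts were few, and most ranked low in the pooled list. They were counted for Or49a, Gr77a, Ir67c, Ir25a and Ir60e, with best ranks of 8346, 12818, 22012, 27436 and 28586 among 30000. The Ir25a summit, 272 bases upstream of an Ir25a start in an exon of tank, was overlapped by no peak of any replicate list. The Or49a peak, 459 bases upstream, was overlapped in all 3, by peaks at ranks 2966, 2073 and 1487 that also overlap the stronger IDR peak beside it. Own summits within 500 bases of the Or49a start were listed in replicates 1 and 3, at ranks 13553 and 7052, and not in replicate 2. Of the 6 pooled summits at receptor starts, 3 (that of Or49a and both of Gr77a) were overlapped in all 3 replicates, and of the 255 near receptor genes 112 (43.9%). The share over all pooled peaks was not counted, so these shares cannot be called high or low. The pooled summit of Ir60e lay nearer to the start of CG13585. Over the 3 replicate lists, 34 of 179 receptor genes had a summit at an own start in at least 1 replicate (19.0%), against 62.2% of all genes. In all 3 replicates 2 did (1.12%), against 29.6% of all genes. These were Gr28b and Gr77a, which were picked out after their values were seen.

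Gr28b, known for warmth and light avoidance, has 5 annotated starts, and its replicate peaks lay 195 bases upstream, 38 bases upstream and 421 bases downstream of 3 different ones, at separate places. Gr77a had overlapping peaks in all 3 lists, with summits 186, 135 and 310 bases upstream of its start at ranks 10992, 13924 and 22174. The site lies in an intron of CG13252. Its pooled summits, 116 and 316 bases upstream, are shown because all 3 replicates had a summit at 1 place within 500 bases of this start, and the Ir67c summit, 417 bases upstream, as the only pooled summit at a receptor start with a RUNX word, in capitals.
Gr77a, first pooled summit, chr3L:20739496-20739596: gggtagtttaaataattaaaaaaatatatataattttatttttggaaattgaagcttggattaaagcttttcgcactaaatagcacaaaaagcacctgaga
Gr77a, second pooled summit, chr3L:20739696-20739796: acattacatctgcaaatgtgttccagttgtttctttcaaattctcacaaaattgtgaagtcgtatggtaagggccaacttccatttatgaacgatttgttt
Ir67c, chr3L:10434472-10434572: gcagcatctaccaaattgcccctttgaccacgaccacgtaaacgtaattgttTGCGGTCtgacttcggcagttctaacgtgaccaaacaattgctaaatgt

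The Ir67c peak was at rank 22347 in replicate 1 and 14699 in replicate 3, and replicate 2 had none overlapping it. The Gr77a windows held no RUNX word. In the 300 bases from 250 before to 50 after the outermost start, 23 of 179 receptor genes had a RUNX word (12.8%), against 11.4% of all genes. By family these were 9 Or genes (15.3%), 12 Gr genes (20.0%) and 2 Ir genes (3.33%). For 130 of the 179 genes, among them 48 of the 60 Ir genes, the annotated start is that of the coding sequence. This holds for 3.52% of all genes, so the windows are not alike. Differences in these shares were not tested. The mean GC content of these windows was 39.5% ± 5.82 (SD over 179 genes) for receptor genes and 39.1% ± 7.74 for all genes.

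Receptors of known role were described by groups, to be read against the shares of all genes within 5 kb, 33.8% in the IDR list and 81.6% in the pooled list. Of the 3 Ir co-receptors, Ir25a had an IDR peak, and Ir8a and Ir76b had best pooled ranks within 5 kb of 16129 and 7014. Of 13 other Ir genes listed as antennal, 1 (Ir76a) had an IDR peak and 8 a pooled peak within 5 kb. This list leaves out the antennal receptor Ir41a, which had neither. Of the 9 sugar receptors, 2 (Gr5a and Gr61a) had an IDR peak and 8 a pooled one, the exception being the fructose receptor Gr43a. Of these 8, 6 are the neighbouring Gr64 genes, which rested on 3 shared pooled summits, all nearest to the starts of CG11593 and CG11594, so they are not separate observations. In replicates 1 and 2 all 9 had a peak within 5 kb. In replicate 3 only 2 did, and none of the 6 Gr64 genes was among them. Among 5 bitter receptors chosen because many bitter neurons share them, which leaves out Gr93a and others, Gr32a and Gr89a had an IDR and a pooled peak, and Gr33a, Gr39a and Gr66a had neither. Replicates 1, 2 and 3 listed a peak within 5 kb for 5, 2 and 4 of these 5. Of the 2 carbon dioxide receptors, Gr63a had an IDR peak and Gr21a did not, nor did Gr21a have a pooled one. The replicates listed a peak within 5 kb for 1, 1 and 2 of them. The 25 odorant receptors known from the larval olfactory organ had 2 with an IDR peak (Or45b and Or49a) and 18 with a pooled one (72.0%), while all 59 Or genes had 5 and 39. Replicates 1, 2 and 3 listed a peak within 5 kb for 20, 21 and 10 of these 25, so that replicate 3 was the lowest here as for the sugar receptors. It was not the lowest for the bitter and carbon dioxide receptors. At own starts none of these groups had an IDR summit, and in the pooled list 1 co-receptor (Ir25a) and 1 larval receptor (Or49a) had one.

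Other chemosensory genes were counted in the same way, where all protein-coding genes had 33.8% and 11.4% in the IDR list and 81.6% and 42.8% in the pooled list, within 5 kb and at starts. Odorant-binding proteins, secreted carriers of odorants, had an IDR summit within 5 kb in 7 of 51 genes (13.7%) and at a start in 0, with 32 (62.7%) and 4 (7.84%) in the pooled list. Only 6 of these 51 genes lacked an annotated 5′ UTR. Pickpocket genes, which encode sodium channels of sensory neurons, had 6 of 29 (20.7%) and 0 in the IDR list, and 22 (75.9%) and 4 (13.8%) in the pooled list. Of these 29 genes 14 lacked an annotated 5′ UTR. Low shares at starts were thus also counted in these gene families, and the part of start annotation in them was not tested. The co-receptor gene Orco and the pheromone-detection gene Snmp1 had no IDR summit within 5 kb and no pooled summit at a start. Their relative Snmp2 had 2 pooled summits at starts, the better at rank 10650. Of 10 transcription factors of chemosensory neuron fate, 2 had an IDR summit within 5 kb, pros (best rank 648) and pdm3 (2172). None had one at a start. The median span of these 10 genes was 21150 bases, against 2166 for all genes, so the share of all genes within 5 kb is not a like background. The proneural genes ato and amos had no IDR summit, nor did the RUNX gene lz, acj6, sd, onecut, Eip93F or sens. Of these, onecut lies on arm 4, where 6.25% of all protein-coding genes had an IDR summit within 5 kb. In the pooled list 4 of the 10 (sd, pros, sens and pdm3; 40.0%, near the share of all genes) had a summit at a start, at best ranks of 3639, 5733, 11250 and 12699.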

How the data were processed

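ChIP-seq peak lists of 3 biological replicates were used, with replicate numbers from the labels. Per the readme texts the authors deposited, each replicate's peaks were derived on dm6 from its own alignment and 1 further file common to all replicates, taken here to be a shared control. The IDR list was derived from the other 4 lists, so the lists are not independent. Not given in the sources used here are aligner, caller and IDR threshold. The authors' signal value, whose scaling is unstated, ranked peaks inside each list. Their deposited −log10 q-values entered no count. The depth of sequencing is unknown.

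Genes, transcripts and coding sequence came from Ensembl release 115 (BDGP6, dm6 coordinates), and bases from RefSeq's Release 6. All peaks and genes lay within its arms. Coordinates are 1-based. A replicate peak matched when it overlapped by at least 1 base. No fits or tests were run: counts stand beside the share of all protein-coding genes. The assignment recovered 200 of 200 simulated summits planted within 500 bases of annotated starts, which checks the code and not the starts or peaks. Members and lists were chosen with earlier results of these data known. The splits by 5′ UTR, span and neighbouring start were added after seeing the data. Named were every receptor gene with an IDR summit, up to 10 with a pooled summit at a start, and the 5 with the most pooled summits. Tables were handled with pandas 2.3.3 on numpy 2.4.6 under Python 3.11.15, intervals came from scipy 1.17.1, and plots from matplotlib 3.10.9.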

Additional observations from a re-analysis of the deposited data

How the results depend on the processing

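Under all 176 alternatives set beside a share of all genes, the share of receptor genes with a peak stayed below it, over all members and by family. The family counts are parts of the counts over all members, so the 176 are not separate observations. The splits by 5′ UTR, span and neighbouring start are not among them. Of receptor genes without a 5′ UTR, 74.6% had a pooled summit within 5 kb, against 73.1% of all such genes. For IDR summits these shares were 13.8% and 18.1%. Of the 44 counts over all members, 19 stayed within 1.5 times the reported count, and so did 76 of the 132 family counts. The count of 26 genes with an IDR summit within 5 kb became 9 at 2 kb, 41 at 10 kb, 0 inside the span, 8 by nearest start only and 13 in the stronger 50% of the list, and ranged from 14 to 22 without one replicate, where only the IDR peaks (1986 to 2147) overlapped by the 3065 strongest peaks of both other replicates are kept. It was 14 without replicate 2 and 14 without replicate 3. The count of 0 at own starts stayed 0 in 7 of 9 alternatives and became 3 at 1000 bases and 1 by peak interval. In the pooled list, the count of 125 within 5 kb became 71 at 2 kb, 10 inside the span and 78 in the stronger 50%, and 69 to 85 without one replicate. The count of 5 at own starts became 1 at 250 bases, 21 at 1000 bases, 13 by interval and 2 in the stronger 50%, and 2 to 3 without one replicate. The replicate mean of 129.3 genes within 5 kb became 78 at 2 kb and 18.67 inside the span, and that of 14.33 at starts became 7 at 250 bases and 27 at 1000 bases. Wider or narrower windows and shorter lists change these counts by construction. Among the 49 members with an annotated 5′ UTR, 57.1% had a pooled summit within 5 kb, against 69.8% of all members, and this choice was made after seeing the data. Low counts limit every statement on single families. No paired analysis was possible because the samples form 1 group and no result comes from a test.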

Other observations

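By chromosome arm, IDR peaks within 5 kb were counted for 2 of 31 receptor genes on 2L, 8 of 46 on 2R, 6 of 35 on 3L, 9 of 42 on 3R and 1 of 25 on X. The shares of all protein-coding genes on these arms were 34.9%, 34.3%, 35.9%, 33.6% and 30.5%. The receptor gene with an IDR peak on X was Gr5a. No difference between arms was tested.

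Of the 179 receptor genes, 14 had no summit within 5 kb in any of the 5 lists. Over the 3 replicate lists alone, 164 of 179 receptor genes (91.6%) and 13245 of 13945 protein-coding genes had one in at least 1 list. The 14 with no summit included the Or genes Or42b, Or82a and Or98a and the Gr genes Gr2a, Gr36a, Gr36b, Gr36c and Gr92a. The others of the 14 were the Ir genes Ir40a, Ir41a, Ir56a, Ir7c, Ir7d and Ir7e. The Gr36 and Ir7 genes among the 14 are neighbours and share surroundings. All 14 were named after their values were seen. The nearest pooled summit to the start of Ir41a, an antennal receptor for polyamines, lay 342015 bases away, the longest such distance among the receptor genes.

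With each IDR summit given only to the nearest protein-coding start, 8 receptor genes held one. Besides the 6 genes described, these were Or65c, 9029 bases downstream of its start at rank 636, and Or67d, the receptor for the male pheromone cis-vaccenyl acetate, 57696 bases downstream at rank 2057.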
